A study of Mus musculus with 20 samples.

Results

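The 4 livers described here came from mice that had received the vehicle alone, Ringer's solution in a volume of 10% of body weight, by hydrodynamic tail vein injection, and that were collected 48 h later. They make up 4 of the 20 arrays at hand and were picked by their vehicle label. The description of the samples counts further vehicle profiles, which were not analysed here. For each gene the standard deviation (SD) and the range over the 4 mice, called vehicle A to D, were computed, and the 153 genes with the largest SD of 15252 genes, 1.00% of those measured, are called the most variable genes. The other 16 mice had received 40 µg of siRNA in the same solution, with 4 mice each for PPARa-M siRNA and PPARa siRNA, which target the transcription factor gene Ppara, and for SEAP-M control siRNA and GL3 control siRNA, which target secreted alkaline phosphatase and GL3. Strain, age and sex of the mice were not given in the sources used here. The mice of all groups, vehicle included, went through the large and rapid injection that drives fluid into the liver, so that these are not untouched livers.

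Each value is the log10 ratio of 1 mouse liver to an RNA pool of 4 vehicle livers on a 2-colour array, averaged over the probes of a gene. The pool was the same on each array and cancels in the SD and in the range, and so does the orientation of the dyes. That a positive value means more RNA in the mouse than in the pool is the likely reading of the sample titles and was not stated outright. With the sign turned, each mouse called highest below would be the lowest and the reverse, and all counts and shares would stay as given. Whether the pool held these same 4 mice is not given. The arrays give ratios and no levels, so that the liver origin could not be checked by the level of its markers, and the measurement error of a single gene is unknown. Each mouse has 1 array, so that the spread between mice includes the spread between hybridizations. In whole liver RNA, fewer cells of a type and less RNA per cell cannot be told apart.

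The liver is a tissue in which mice kept alike can still differ. Part of its transcripts follow the time of day through the circadian clock, part follow food intake through insulin, glucagon and sterol sensing, and part follow the pulses of growth hormone that also set sex differences. Resident macrophages, stellate cells, passing blood cells and scraps of neighbouring organs add transcripts of their own. The results below are ordered by these sources of transcripts, as background and without assigning a cause.

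Most genes varied little among the 4 vehicle livers. The median SD was 0.0364 on the log10 scale, and the median gene was 1.21-fold higher in its highest than in its lowest mouse. Only 319 genes (2.09%) differed by more than 2-fold between any pair of vehicle mice and 72 by more than 3-fold, whereas the most variable genes had a median fold of 2.94. In the siRNA groups the median SD was 0.0458 for PPARa-M siRNA, 0.0391 for PPARa siRNA, 0.0381 for SEAP-M control siRNA and 0.0325 for GL3 control siRNA. The interquartile range of the log10 ratio over all genes averaged 0.0510 ± 0.0059 on vehicle arrays (SD, n = 4) and 0.0675 ± 0.0186 on siRNA arrays (SD, n = 16), with a range of 0.0436 to 0.0580 on vehicle arrays and of 0.0438 to 0.1196 on siRNA arrays. This difference did not pass the test (exact permutation test, two-sided, p = 0.0978, 4845 permutations). The 2 widths are also not quite alike. On an siRNA array the width holds the difference of its group from the vehicle pool as well. It is therefore not a spread between equally treated livers, as the SD within a group is.

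**Figure D1:**
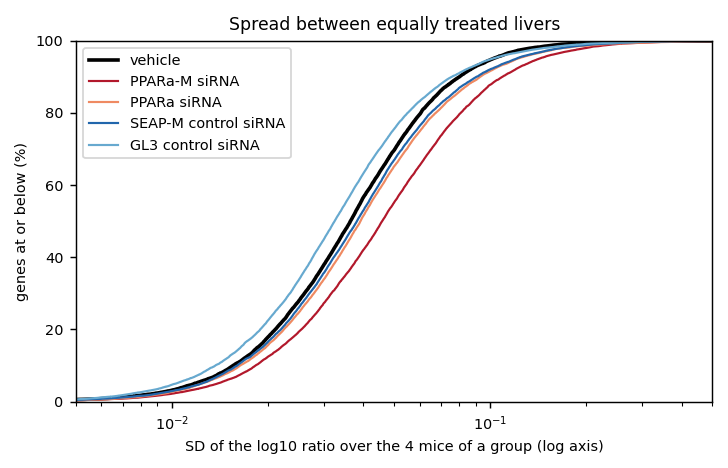
Cumulative share of the 15252 genes (y axis, percent) at or below a given SD of the log10 ratio over the 4 mice of a group (x axis, log scale), with 1 line for each group. The vehicle line lies left of those of PPARa-M, PPARa and SEAP-M control siRNA at the median (0.0364 against 0.0458, 0.0391 and 0.0381) and right of that of GL3 control siRNA (0.0325).

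The 5 genes with the largest SD owed it to 1 array each. Glrb, a subunit of the glycine receptor, Lhx1 and Hoxa11, both homeobox genes, stood at 2.00 in vehicle D, and Lao1, an amino acid oxidase, and the keratin Krt86 stood at 2.00 in vehicle C, which is the limit of the deposited values. In the other 3 mice Lhx1 was between -0.028 and 0.065, and Krt86 was between 0.006 and 0.069. Each of these genes has 1 probe. The values just inside the border of the most variable genes were SDs of 0.1674 (Plaa) and 0.1670 (Phlda2), against 0.1669 for B3galt1 and Ppp1r3g just outside.

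Below these genes came transcripts with large but not limiting ratios. Moxd1, a monooxygenase of the dopamine beta-hydroxylase family, had log10 ratios of 0.543, -0.853, -0.330 and -0.866 in vehicle A to D. Gadd45g, a stress-induced growth arrest gene, had -0.666, -0.055, -0.073 and 0.266, so that vehicle A was lowest by a wide margin. Ces2b, a carboxylesterase, was at 0.386 in vehicle A and at -0.380, -0.383 and -0.382 in vehicle B to D. Its 2 probes had SDs of 0.173 and 0.595, so the size of this change depends on the probe.

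Genes with several probes show how far probes of 1 gene moved alike. For the 17 most variable genes with 2 or more probes, the mean over probes held a median of 95.2% of the summed squares between the vehicle mice, which is a description, since a large SD of that mean chose them. In the 16 siRNA mice, which the choice did not use, the shared part had a median of 92.8% over these 17 genes (42.1% to 99.7%) and of 54.4% over all 2404 genes with 2 or more probes. In 9 of the 17 genes the same vehicle mouse was highest and the same mouse lowest on each probe. The shared part in vehicle mice was 99.9% for Col1a1 (collagen), 99.8% for Sqle (squalene epoxidase), 99.6% for Cyp7b1 (oxysterol hydroxylase), 99.1% for Pdk4 over 4 probes (a kinase that shuts down glucose oxidation), 98.0% for G6pc (glucose-6-phosphatase) and 95.2% for Jun over 3 probes. It was 40.7% for Cish, an inhibitor of cytokine signalling, whose probes had SDs of 0.052 and 0.532. The remaining 136 most variable genes have 1 probe.

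**Figure D2:**
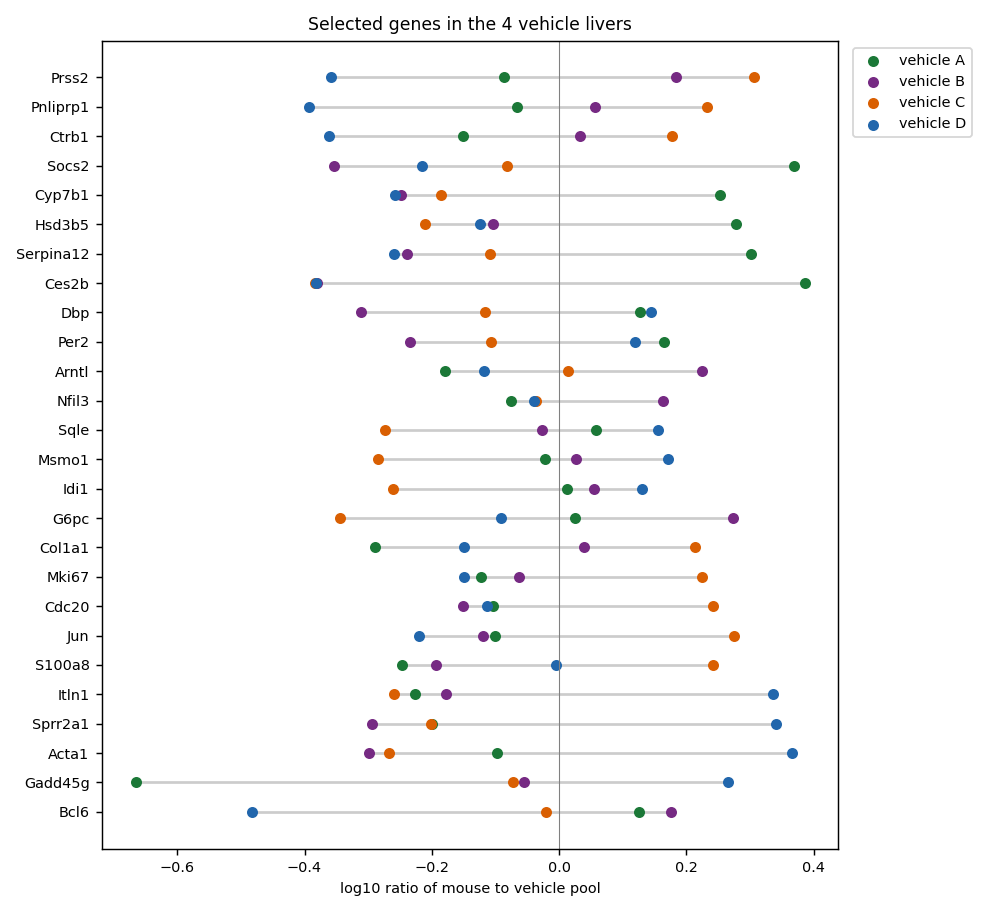
Log10 ratio of mouse to vehicle pool (x axis) of 26 genes (y axis) in vehicle A, B, C and D, with 1 point per mouse and a grey line over the range. Pancreatic genes such as Prss2 were lowest in vehicle D, cholesterol synthesis genes such as Sqle lowest in vehicle C, and Socs2, Cyp7b1 and Hsd3b5 highest in vehicle A.

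The most variable genes did not set 1 mouse apart from the others throughout. Vehicle D was the mouse farthest from the other 3 in 66 of the 153 genes, being higher in 34 (22.2%, against 13.4% of all genes) and lower in 32 (20.9%, against 10.4%). Vehicle A was the one apart in 33 genes, vehicle C in 34 and vehicle B in 20. Of the 24 possible orders of the mice, the order C > B > A > D occurred in 29 of the most variable genes (19.0%), against 4.73% of all genes, and the order D > A > C > B in 17 (11.1%), against 4.17%. The 4 mice are described by 3 axes, of which the first held 55.8% of the summed squares of the most variable genes, or 45.5% without the 5 genes at the limit. Without those genes it set vehicle D (loading 0.84) against vehicle C (-0.44) and B (-0.31), the next axis set vehicle A (0.86) against the others, and the last set vehicle B (0.78) against vehicle C (-0.62).

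**Figure D3:**
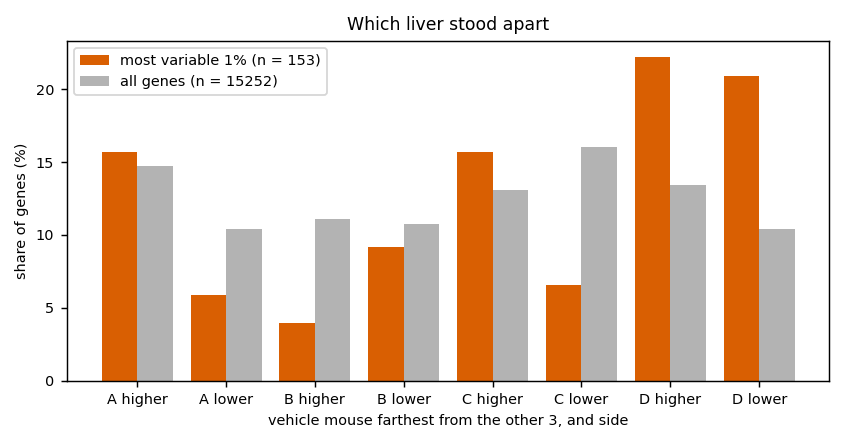
Share of genes (y axis, percent) by the vehicle mouse whose value lay farthest from the mean of the other 3 and by its side (x axis), for the 153 most variable genes and for all 15252 genes. Vehicle D accounts for 22.2% (higher) and 20.9% (lower) of the most variable genes, against 13.4% and 10.4% of all genes.

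Of the gene lists, that of the exocrine pancreas, whose acinar cells make digestive enzymes, had the most members among the most variable genes. Of 27 listed genes measured, 19 were among the most variable 1.00% and 21 among the most variable 5.00%, and 21 followed the order C > B > A > D (4.73% of all genes). Trypsin Prss2 had log10 ratios of -0.086, 0.184, 0.307 and -0.358 in vehicle A to D, a 4.62-fold range. The lipase-related Pnliprp1 had -0.066, 0.056, 0.232 and -0.392 (4.21-fold). The chymotrypsin-like protease Ctrl had -0.081, 0.073, 0.200 and -0.401 (4.00-fold), and carboxypeptidase Cpa1 had -0.145, 0.048, 0.237 and -0.368 (4.03-fold). These enzymes differ in substrate and were ordered alike in the 4 mice. The mean over the list was -0.077, 0.057, 0.131 and -0.260, and vehicle D was lowest for 23 of the 27 genes (22.5% of all genes) and vehicle C highest for 21 (24.0%).

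The list did not move as a whole. Try4 (SD 0.018), a further trypsin, Cela1 (0.031), an elastase, Reg3a (0.047) and Reg3b (0.056), lectins that acinar cells make under stress, and the amylase Amy1 (0.063) varied far less than the 19 genes above. Several trypsin, elastase and amylase genes are close copies of each other, so that their probes may share signal. Since the arrays give no levels, the amount of pancreatic RNA in any liver is unknown and its part in the spread was not tested. In the siRNA groups the mean over the list covered a 1.78-fold range within PPARa-M siRNA, 4.47-fold within PPARa siRNA, 3.36-fold within SEAP-M control siRNA and 4.12-fold within GL3 control siRNA, beside 2.46-fold within the vehicle group.

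Acinar enzyme genes are known to share promoter elements bound by the PTF1 complex, which reads an E-box and a TC-box. The promoters of 2 of the genes that varied together, from 250 bases before to 50 after the start site, are shown with both boxes in capitals, the E-box searched as CACCTG and the TC-box as TTTCCC, on either strand. They are RefSeq promoters of the build GRCm38.p6, Prss2 at chr6:41521526-41521825 on the plus strand and the carboxyl ester lipase Cel at chr2:28563354-28563653 on the minus strand.
Prss2: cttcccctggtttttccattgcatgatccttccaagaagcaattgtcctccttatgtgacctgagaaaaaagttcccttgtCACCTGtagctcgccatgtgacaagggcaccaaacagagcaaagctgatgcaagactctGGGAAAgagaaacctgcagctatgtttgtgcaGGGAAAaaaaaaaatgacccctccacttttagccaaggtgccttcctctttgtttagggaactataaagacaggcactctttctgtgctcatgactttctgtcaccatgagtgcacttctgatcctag
Cel: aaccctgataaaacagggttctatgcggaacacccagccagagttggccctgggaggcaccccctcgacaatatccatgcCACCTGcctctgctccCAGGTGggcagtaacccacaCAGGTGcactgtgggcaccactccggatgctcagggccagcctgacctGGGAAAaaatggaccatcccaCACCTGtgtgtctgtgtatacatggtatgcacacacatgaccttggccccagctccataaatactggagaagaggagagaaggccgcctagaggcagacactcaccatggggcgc
Of the 22 list genes with a promoter in the RefSeq table, 14 held the E-box letters, as did 20.2% of all 32851 promoters, and 8 held the TC-box letters, as did 25.2%. Here and below, a gene counts if any of its promoters holds the letters, whereas the share is over single promoters. The 2 measures are therefore not quite alike. Cela1 and Reg3b, which varied little, held both, so that the letters did not separate the genes that varied from those that did not. A match of letters is a description and not a binding site.

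Genes of the small intestine were mostly high in vehicle D, the mouse in which the pancreatic genes were low. For the epithelium of the small intestine, a list drawn up after the values were seen, 7 of 31 measured genes were among the most variable 1.00% and 12 among the most variable 5.00%, and 20 were highest in vehicle D (25.5% of all genes). Without vehicle D, 4 of the 31 were among the most variable 5.00%. The lectin Itln1 of goblet and Paneth cells had -0.227, -0.178, -0.259 and 0.336 in vehicle A to D. The cornified envelope gene Sprr2a1 had -0.199, -0.294, -0.202 and 0.340. The calcium-binding S100g had -0.206, 0.024, -0.155 and 0.288, and villin, Vil1, had -0.117, -0.197, -0.060 and 0.272. For each of these genes vehicle D lay above the other 3 mice.

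Skeletal muscle genes gave a mixed picture. The actin Acta1 had -0.097, -0.299, -0.268 and 0.365 and the troponin Tnnc2 had -0.032, -0.244, -0.110 and 0.277 in vehicle A to D, again with vehicle D highest. The list as a whole was steady, with a median SD of 0.0335 over 24 genes, below the 0.0364 of all genes, and the muscle creatine kinase Ckm had an SD of 0.006. Listed genes of adipose tissue, of B and plasma cells and of T and NK cells had no member among the most variable 5.00% (0 of 15, 0 of 11 and 0 of 18).

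**Figure D4:**
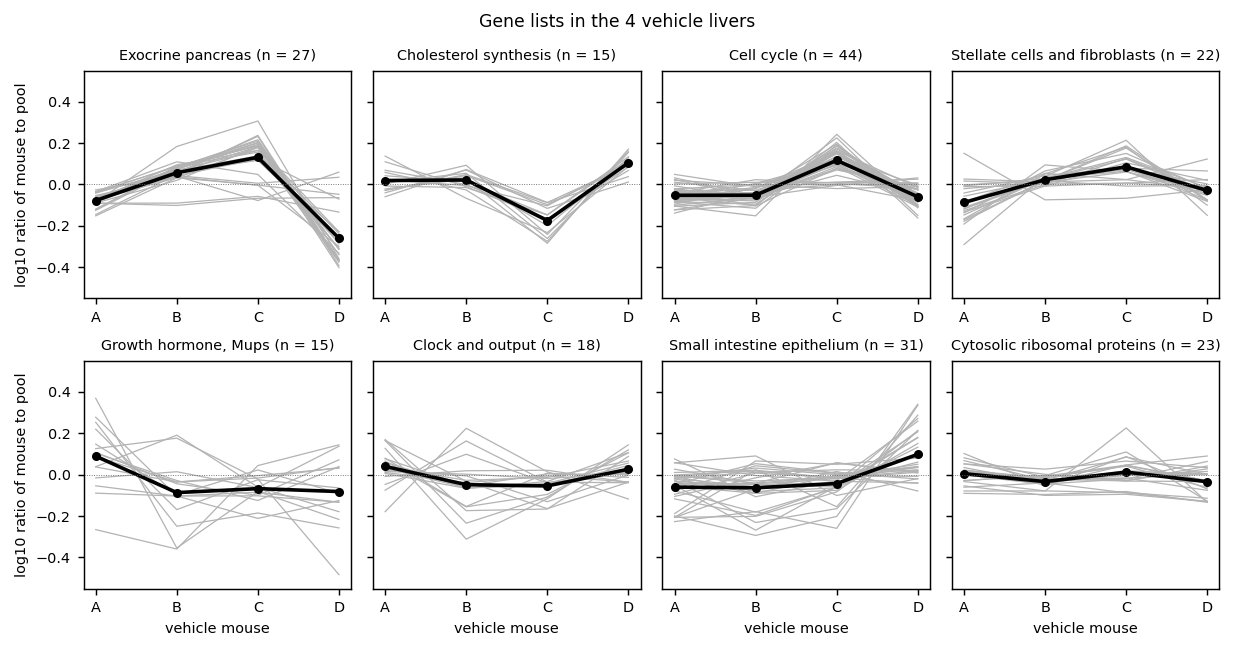
Log10 ratio of mouse to pool (y axis) in vehicle A to D (x axis) for 8 gene lists, with 1 grey line per gene and the list mean in black. The pancreatic list mean runs between -0.260 in vehicle D and 0.131 in vehicle C, the cholesterol synthesis mean is lowest in vehicle C (-0.174), and the ribosomal list is nearly flat.

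Proliferation genes were mostly highest in vehicle C. Of 44 cell cycle genes, 37 were highest in vehicle C (24.0% of all genes) and 18 were among the most variable 5.00%. Cdc20, which activates the anaphase-promoting complex, had -0.104, -0.151, 0.242 and -0.112 in vehicle A to D. The proliferation marker Mki67 had -0.122, -0.063, 0.225 and -0.150, and Rrm2, a subunit of ribonucleotide reductase, had -0.063, -0.101, 0.204 and -0.162. The 3 other mice lay close together, and the list mean was 0.117 in vehicle C against -0.052, -0.052 and -0.059 in vehicle A, B and D. Without vehicle C, 0 of the 44 genes were among the most variable 5.00%.

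Genes of stellate cells and fibroblasts, which make the liver's collagen, were highest in vehicle C in 16 of 22 cases (24.0% of all genes). In 14 cases they were lowest in vehicle A (22.5% of all genes). The list mean was -0.087, 0.023, 0.085 and -0.029 in vehicle A to D, so that vehicle A was about as far off at the low end as vehicle C at the high end. Col1a1 had -0.290, 0.040, 0.214 and -0.149 in vehicle A to D, and the growth factor receptor Pdgfrb had -0.166, 0.052, 0.181 and -0.100. Of the list, 9 genes were among the most variable 5.00%, 4 without vehicle A and 5 without vehicle C. Desmin, Des, a filament of the same cells, went another way, with 0.151, -0.074, -0.066 and -0.025.

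Immediate-early genes, which answer growth factors and stress within minutes, were highest in vehicle C in 14 of 22 cases (24.0% of all genes). Jun had -0.100, -0.120, 0.275 and -0.219 in vehicle A to D over 3 probes and Egr1 had -0.163, -0.055, 0.185 and -0.059 over 4. The neutrophil proteins S100a8 (-0.246, -0.193, 0.242 and -0.004) and S100a9 (-0.221, -0.184, 0.213 and -0.044) had vehicle C highest as well. But of the 19 genes of the neutrophil list 7 were highest in vehicle C (24.0% of all genes) and 10 in vehicle D (25.5%). The macrophage list was highest in vehicle D for 10 of 21 genes (25.5% of all genes) and in vehicle C for 8 (24.0%). It was lowest in vehicle A for 10 (22.5%) and in vehicle B for 9 (23.4%). Its mean was -0.083, -0.024, 0.047 and 0.029 in vehicle A to D. In the macrophage list, the scavenger receptor Marco had -0.208, 0.008, 0.146 and -0.022. The erythroid beta globin Hbb-b2 was lowest in vehicle C (0.136, -0.002, -0.309 and 0.041).

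Cholesterol synthesis genes ran the opposite way. These genes are targets of SREBP2, which is switched on when sterols are low. All 15 measured genes of the list were lowest in vehicle C (31.6% of all genes) and 11 were highest in vehicle D (25.5%). Of the 15, 4 were among the most variable 1.00% and 10 among the most variable 5.00%. The sterol oxidase Msmo1 had -0.022, 0.026, -0.284 and 0.171 in vehicle A to D, a 2.85-fold range. Sqle had 0.058, -0.026, -0.274 and 0.155 over 2 probes, Fdft1 (squalene synthase) had 0.002, 0.093, -0.242 and 0.160 over 2, and the isomerase Idi1 had 0.012, 0.054, -0.261 and 0.130. The list mean was -0.174 in vehicle C against 0.019, 0.022 and 0.105 in vehicle A, B and D. Without vehicle C, 2 of the 15 genes were among the most variable 5.00%. In contrast, the fatty acid and triglyceride synthesis list, part of which the related SREBP1 drives, had 2 of 22 genes among the most variable 5.00%. Of these 2, Thrsp had 0.168, -0.258, -0.075 and 0.137.

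Vehicle A stood apart by genes under the control of growth hormone. Male mice release this hormone in pulses, which act through STAT5 in the hepatocyte. Of 15 listed growth hormone targets and major urinary protein genes, 11 were highest in vehicle A (28.1% of all genes), 5 were among the most variable 1.00% and 8 among the most variable 5.00%. Socs2, a feedback inhibitor of the receptor, had 0.369, -0.354, -0.082 and -0.216 in vehicle A to D, a 5.28-fold range. Cyp7b1 had 0.253, -0.249, -0.185 and -0.257 over 2 probes, and the male-type steroid dehydrogenase Hsd3b5 had 0.278, -0.103, -0.211 and -0.125. For each of them vehicle A lay above the 3 other mice, which lay near each other for Cyp7b1. Without vehicle A, 4 of the 15 genes were among the most variable 5.00%.

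Other members of the list did not follow. Bcl6, a repressor that shares targets with STAT5, had 0.126, 0.176, -0.021 and -0.483, with vehicle D apart. Cish, a further feedback gene, was lowest in vehicle B (-0.265, -0.359, 0.044 and 0.144), but its probes disagreed as given above. Of the female-type genes, Cyp2b9 had -0.302, 0.124, -0.036 and 0.087 over 2 probes, so that vehicle A was lowest, and Cyp2b13 had -0.185, 0.092, -0.010 and 0.046. In the list of 19 female and male transcripts as a whole, 6 were lowest in vehicle A (22.5% of all genes) and 8 in vehicle C (31.6%). Highest in vehicle B were 9 of them (22.5%). Outside the list, 3 further genes, named after their values were seen, had vehicle A on top, as did 28.1% of all genes. Serpina12, the adipokine vaspin, had 0.302, -0.239, -0.109 and -0.259. The fatty acid-binding protein Fabp5 had 0.300, -0.271, -0.044 and -0.184, and G0s2, an inhibitor of lipolysis, had 0.256, -0.006, -0.209 and -0.173. The chaperone list was highest in vehicle A as well, in 11 of 19 genes (28.1% of all genes). In it, Creld2, a gene of the unfolded protein response, had 0.238, -0.226, -0.196 and 0.000, and Hsph1 had 0.167 against -0.046, -0.054 and -0.063.

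Among the circadian clock genes, the most variable ones had like values in vehicle A and D. The clock runs as a loop in which BMAL1 (Arntl) drives Per and Dbp, and its negative limb returns to shut Arntl off, so that Dbp and Arntl peak at opposite times of the day. Dbp had 0.127, -0.311, -0.116 and 0.144 in vehicle A to D, a 2.86-fold range. Per2 had 0.165, -0.234, -0.108 and 0.120, and the output gene Usp2 had 0.170, -0.174, -0.166 and 0.088. Vehicle A and D were the high pair for all 3, and vehicle B and C the low pair. Arntl had -0.179, 0.224, 0.014 and -0.118, so that vehicle B and C were the high pair, and Nfil3, named here after its values were seen, had -0.075, 0.163, -0.036 and -0.039, with vehicle B apart. Of 18 clock and output genes, 4 were among the most variable 1.00% and 7 among the most variable 5.00%, 4 without vehicle B, and 5 followed the order D > A > C > B (4.17% of all genes). Nr1d1, whose protein represses Arntl, had an SD of 0.015. The time of day of each collection was not given, and its part in the spread was not tested.

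REV-ERB (Nr1d1) and ROR act on the ROR element, searched here as TAGGTCA on either strand. Of 15 clock genes with a promoter in the table, 2 held these letters, Arntl and Nfil3, as did 2.61% of all promoters. Cry1, the third clock gene that was highest in vehicle B (-0.047, 0.099, -0.040 and 0.014), did not hold them. Motif and genes are shown after their values were seen, as a description. Both promoters are shown with the letters in capitals, Arntl at chr7:113207261-113207560 on the plus strand, which is 1 of 2 promoters of this gene in the table, and Nfil3 at chr13:52980990-52981289 on the minus strand.
Arntl: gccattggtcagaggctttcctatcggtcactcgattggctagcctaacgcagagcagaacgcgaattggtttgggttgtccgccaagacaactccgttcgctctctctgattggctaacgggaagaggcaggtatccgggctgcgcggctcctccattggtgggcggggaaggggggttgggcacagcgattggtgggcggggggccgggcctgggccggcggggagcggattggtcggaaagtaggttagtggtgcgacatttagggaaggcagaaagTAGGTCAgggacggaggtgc
Nfil3: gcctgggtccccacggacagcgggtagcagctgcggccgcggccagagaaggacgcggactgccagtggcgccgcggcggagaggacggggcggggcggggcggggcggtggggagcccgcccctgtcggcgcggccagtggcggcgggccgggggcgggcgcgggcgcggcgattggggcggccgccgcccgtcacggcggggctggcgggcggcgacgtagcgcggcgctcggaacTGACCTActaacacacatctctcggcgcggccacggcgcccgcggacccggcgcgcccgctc
The match begins 30 bases after the start site in Arntl and 12 bases before it in Nfil3. The E-box CACGTG that BMAL1 and CLOCK bind was held by 4 of the 15 (Bhlhe41, Cry1, Per1 and Tef), as by 7.15% of all promoters, and by neither Dbp, Per2 nor Usp2 in these windows.

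Acute phase genes, made by hepatocytes under inflammatory cytokines, were highest in vehicle D in 17 of 28 cases (25.5% of all genes) and lowest in vehicle B in 14 (23.4%), and 11 were among the most variable 5.00%. The list fell into parts. Socs3, a feedback inhibitor of interleukin-6 signalling, had -0.205, -0.409, 0.202 and 0.135 in vehicle A to D, so that vehicle C and D were high. Serum amyloid A3, Saa3, had 0.141, -0.197, -0.311 and 0.165 over 2 probes, with vehicle A and D high. The iron hormone hepcidin, Hamp, had -0.365, -0.050, 0.020 and 0.189, and its paralog Hamp2 had -0.196, 0.041, -0.198 and 0.156. The 2 genes are close copies, so that their probes may share signal.

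Genes of the amino acid stress response, which ATF4 drives, had 5 of 16 members among the most variable 1.00% without a common order. Of all 16 genes, 10 were lowest in vehicle D (22.5% of all genes) and 0 in vehicle C (31.6%). Chac1, which degrades glutathione, had -0.355, -0.239, 0.108 and 0.195 in vehicle A to D, and Nupr1, a stress-induced nuclear protein, had -0.149, -0.002, 0.246 and -0.184. The lipoprotein receptor Vldlr had -0.271, 0.104, -0.033 and 0.109. Asns, which makes asparagine, had 0.093, -0.156, 0.164 and -0.158. The amino acid response element, searched as TGATGNAA on either strand, stood in the promoters of 6 of 15 genes (Asns, Chac1, Fgf21, Nupr1, Slc7a11 and Vldlr), as in 3.97% of all promoters. The promoters of Chac1 at chr2:119350992-119351291 on the plus strand and of Asns at chr6:7693160-7693459 on the minus strand are shown with these letters in capitals, as 2 genes that share the element and were ordered differently in the 4 mice.
Chac1: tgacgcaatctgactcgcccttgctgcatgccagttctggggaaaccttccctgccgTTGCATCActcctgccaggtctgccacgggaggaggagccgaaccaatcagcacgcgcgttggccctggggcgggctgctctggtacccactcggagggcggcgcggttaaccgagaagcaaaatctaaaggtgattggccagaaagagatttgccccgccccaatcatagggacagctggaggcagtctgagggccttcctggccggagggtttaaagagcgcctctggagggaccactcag
Asns: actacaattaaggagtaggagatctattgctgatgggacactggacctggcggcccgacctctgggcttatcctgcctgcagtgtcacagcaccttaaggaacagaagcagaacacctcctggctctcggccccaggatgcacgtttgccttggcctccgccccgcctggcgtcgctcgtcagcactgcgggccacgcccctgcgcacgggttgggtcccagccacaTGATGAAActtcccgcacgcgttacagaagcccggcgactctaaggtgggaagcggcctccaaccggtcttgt

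Genes of fasting and glucose output varied one by one. G6pc, which releases glucose from the hepatocyte, had 0.026, 0.273, -0.344 and -0.091 in vehicle A to D, a 4.13-fold range over 2 probes. Pdk4 had -0.021, 0.163, 0.045 and -0.281 over 4 probes, and Igfbp1, which insulin represses, had -0.155, 0.197, 0.029 and -0.026 over 3. Vehicle B was highest for all 3, and the lowest mouse differed for each. Of the 14 genes of the glucose production and feeding list, 5 were highest in vehicle B (22.5% of all genes). In vehicle D 4 were highest, in vehicle A 3 and in vehicle C 2, among them Asns. In contrast, Pck1, the entry enzyme of glucose production, was nearly the same in the 4 mice, at -0.084, -0.089, -0.093 and -0.119 (1.08-fold). Ddit4, a fasting- and stress-induced inhibitor of mTORC1, was also highest in vehicle B, with -0.221, 0.283, -0.102 and -0.149. The fatty acid oxidation list, which holds the PPARα targets, had a median SD of 0.0420, and 4 of its 23 genes were among the most variable 5.00%.

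The genes at the centre of the study were not among the most variable. Ppara had 0.065, -0.032, -0.009 and 0.045 in vehicle A to D over 4 probes, an SD of 0.0456 (1.25-fold), which is above the median of 0.0364. Its target Cpt1a, which admits fatty acids to the mitochondrion, had an SD of 0.0183 over 5 probes, and Acadl, an acyl-CoA dehydrogenase, had 0.0369 over 3. In the ribosomal protein list 1 of 23 genes was among the most variable 5.00%, and the median SD was 0.0325. Among genes with 3 or more probes the smallest SDs were those of Dock1 (0.0029), Dlg4 (0.0038), Bdkrb2 (0.0039), Gfap (0.0040) and Mc3r (0.0046). Mc3r, for example, is a gene of the brain. Whether such a gene was expressed in the liver at all cannot be read from ratios, and a gene without signal can look steady. Albumin, Alb, was among the most variable genes on its 1 probe, with -0.070, 0.282, -0.046 and 0.307.

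Mice of the siRNA groups gave a measure of spread that the ranking had not used. Of the 153 most variable genes, 116 (75.8%) were also in the top 5.00% by pooled SD within the 4 siRNA groups, 57 (37.3%) were in the top 1.00%, and 1 was below the median. The gene below the median was Npn2, with -0.069, -0.256, 0.336 and 0.249 in the vehicle mice and a pooled SD of 0.0403 in the siRNA mice. Across all genes the SDs in vehicle and in siRNA mice had a rank correlation of 0.556, a description over 15252 genes that are not independent and that share the probes and the pool.

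**Figure D5:**
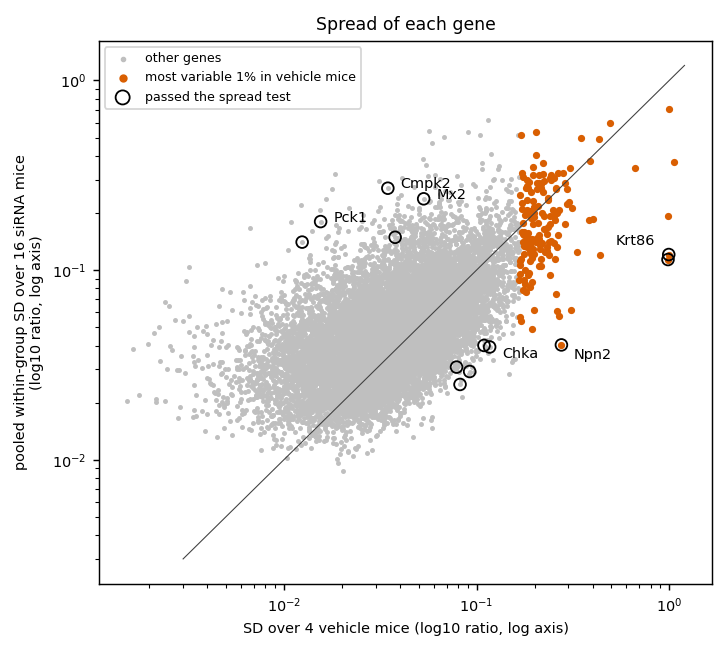
SD of each gene over the 4 vehicle mice (x axis, log scale) and pooled within-group SD over the 16 siRNA mice (y axis, log scale), with the diagonal of equal spread. The most variable 1% in vehicle mice are coloured, and circles mark the 13 genes that passed the spread test, 8 below the diagonal such as Npn2 and Chka and 5 above it such as Pck1 and Cmpk2.

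A test of the absolute deviations from the group mean called few genes as differing in spread between vehicle and siRNA mice (limma, 20 arrays, Benjamini-Hochberg over all genes). Its power is low with 4 mice per group, so that genes without a call were not shown to vary alike. The test called 8 genes (0.0525%) as more variable in vehicle mice and 5 (0.0328%) as less variable. At an unadjusted p under 0.05 they were 553 and 572. With arrays set to one interquartile range the calls were 126 and 2, and with quantile normalization 184 and 4. Both settings give all arrays like widths, although the width of an siRNA array also holds the difference of its group from the vehicle pool. Leaving out vehicle A gave 14 and 5, vehicle B 18 and 2, vehicle C 9 and 2, and vehicle D 17 and 1. Npn2 deviated by 0.263 on average in vehicle mice and by 0.0314 in siRNA mice (adjusted p = 0.00034). Chka, the choline kinase that starts phosphatidylcholine synthesis, had -0.106, 0.096, 0.115 and -0.086 in vehicle A to D over 2 probes, with mean deviations of 0.116 in vehicle and 0.0335 in siRNA mice (adjusted p = 0.0020). Foxq1, a forkhead factor, had mean deviations of 0.0898 and 0.0250 (adjusted p = 0.016). The others were Krt86 and Hoxa11, by their limit values, Akap2 and the unnamed transcripts 4930404A05Rik and 4921507P07Rik.

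The 5 genes that were less variable among vehicle mice had their high values in 2 mice of 1 siRNA group. Pck1 deviated by 0.0130 on average in vehicle mice and by 0.139 in siRNA mice (adjusted p = 0.00014). The others were the interferon-induced genes Cmpk2, Mx2 and Adar and the nuclease Trex1. Cmpk2 had 0.051, 0.008, -0.033 and 0.019 in vehicle A to D, whereas it stood at 0.791 and 0.858 in PPARa-M siRNA C and D and at -0.024 and -0.132 in PPARa-M siRNA A and B. The same 2 mice of that group had the high values of Mx2 (0.855 and 0.903), Adar (0.404 and 0.428), Trex1 (0.522 and 0.537) and Pck1 (0.401 and 0.492). Against the control siRNA groups alone, 0 genes were called as less variable in vehicle mice. Of 40 interferon response genes, 33 had the smaller deviation in vehicle mice, as did 60.1% of all genes. At an unadjusted p under 0.05 in the spread test they were 15 of the 40, beside 572 of all 15252 genes. After adjustment it was 1 of the 40, beside 5 of all genes. Among the vehicle mice themselves vehicle B was lowest for 22 of the 40 (23.4% of all genes), and the most variable was the guanylate-binding protein Gbp4 with -0.046, -0.201, -0.072 and 0.219.

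Whether genes of 1 process move together between equally treated livers was tested in the 16 siRNA mice, with the mean of each group removed, on 15 pairs of genes taken from the lists. Of these pairs, 10 passed by Pearson's r and 10 by Spearman's rho (permutation within groups, 100000 permutations, two-sided, Benjamini-Hochberg over the 15 pairs). In the control siRNA groups alone, 5 passed by r and 2 by rho. Part of the passing pairs leaned on few mice. Without the 2 mice farthest from the median of the first gene, r fell from 0.726 to 0.497 for the fatty acid synthesis pair. It fell from 0.792 to 0.551 for the fatty acid oxidation pair, and from 0.899 to 0.663 and 0.876 to 0.668 for the acute phase pairs. The interferon pair went from 0.986 to 0.976, and Mt1 and Mt2 from 0.929 to 0.898. The pancreatic Cpa1 and Ctrb1 had r = 0.983 and rho = 0.974 (adjusted permutation p = 0.00023 and 0.00082), and r = 0.979 without the 2 mice farthest from the median of Cpa1. In the vehicle mice Ctrb1 had -0.152, 0.032, 0.178 and -0.362, beside the values of Cpa1 given above. S100a8 and S100a9 had r = 0.994 and rho = 0.959 (adjusted permutation p = 0.0004 and 0.0023), and r = 0.984 without 2 mice. The metallothioneins Mt1 and Mt2 had r = 0.929 and rho = 0.926 (adjusted permutation p = 0.00023 and 0.00082), but in the vehicle mice they ran apart, with -0.070, -0.085, -0.017 and 0.093 for Mt1 and -0.133, -0.002, -0.079 and -0.089 for Mt2.

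For the clock, Dbp and Arntl had r = -0.785 and rho = -0.709 in the siRNA mice, which did not pass (adjusted permutation p = 0.0749 and 0.0698), and r = -0.728 without 2 mice. Dbp and Per3, a further clock gene, passed, with r = 0.357 and rho = 0.600 (adjusted permutation p = 0.0113 and 0.0143), and r = 0.388 without 2 mice. The actin Acta1 and Ckm had r = 0.694 and rho = 0.682 (adjusted permutation p = 0.0259 and 0.0308), and r = 0.665 without 2 mice, although Ckm hardly varied in the vehicle mice. Fos and Egr1 did not pass, with r = 0.225 and rho = 0.162 (adjusted permutation p = 0.515 and 0.629), and r = -0.146 without 2 mice. The pairs have close sequences in some cases, such as Mt1 and Mt2 or the amyloid genes Saa1 and Saa2, where probes may share signal.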

How the data were processed

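Liver RNA was extracted with Trizol and RNeasy columns, amplified once to cRNA and hybridized on 2-colour custom oligonucleotide arrays. The authors deposited the log10 ratio of the Cy5 and Cy3 channels for 23493 probes on 20 arrays, read here as mouse (Cy5) over vehicle pool (Cy3), which the titles make likely but no source states. Their normalization is not given in the sources used here, and the values were used as deposited, including 7 on vehicle arrays at the limit of 2. No signal intensities were at hand, so that depth and detection are unknown, and how far a value can be trusted rests on the few arrays. Of the probes, 18790 carried 1 gene symbol in the array annotation, 4638 carried none and 65 carried several. The probes with 1 symbol were averaged to 15252 genes (12848 with a single probe), and 18275 of them had an Entrez identifier in the RefSeq table of GRCm38.p6, with 0 symbols that differed. Promoters were those of the RefSeq table of that build, which held 11956 of the genes.

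The SD and range over the vehicle arrays were descriptions without a test, and no correlation over 4 arrays was computed. Spread was compared with the siRNA groups by limma 3.58.1 in R 4.3.3 on absolute deviations from the group mean times the square root of n/(n - 1), with 1 mean per group, moderated variances and a threshold of 0.05 on the adjusted p. On simulated data with known changes in spread, this test called unchanged genes more often than its nominal rate, so that its adjusted p-values are somewhat too small. Gene pairs were tested with scipy 1.17.1 and numpy 2.4.6 in Python 3.11.15. The 15 pairs were those of 19 listed with both genes on the array. No scan date, slide or batch was at hand.

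Genes were named by rule (the 30 with the largest SD, up to 4 of each list, up to 5 for each mouse and side, the 10 most variable with 2 or more probes, the 5 steadiest with 3 or more probes, those called by the spread test, and Ppara, Cpt1a and Acadl), of which the text gives a part, or as members of the tested pairs. Named after their values were seen were Cel, Des, Hsd3b5, Hsph1, Nfil3, Nr1d1, Serpina12, Fabp5, G0s2, Cxcl1, the steady members of the pancreatic list and of the others, and the promoters and motifs shown. The 33 gene lists, the pairs and the vehicle group itself were chosen with earlier results of these data known, and the list of small intestine genes was added after the values were seen. The agreement of probes in the siRNA mice was added after the data were seen. Alternatives were other scalings, other measures of spread, other probe summaries and leaving out each vehicle array.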

Additional observations from a re-analysis of the deposited data

Results flagged for a closer look

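A highest or lowest value among 4 was taken as standing apart when its gap to the next, divided by the whole range, exceeded the critical value of Dixon's test. Chance alone does so in about 1 in 20 groups. Among all 15252 genes, 881 (5.78%) had such a value in the vehicle mice, and among the 116 genes named here and in the report 14 did. Many of the 116 were named for a large SD or a large gap in these same mice. Their share can therefore not be set against that of all genes. Vehicle D was the one apart for Lhx1 (gap 0.954 of the range), Hoxa11 (0.926) and Glrb (0.854), each at the limit of 2.00, for the intestinal genes Itln1 (0.864) and Sprr2a1 (0.851), and for Plaa (0.844), whose 2 probes had SDs of 0.019 and 0.326. Vehicle C was the one apart for Krt86 (0.968) and Lao1 (0.834), both at the limit, and for the cell cycle gene Cdc20 (0.880). Vehicle A was highest and apart for Ces2b (0.996), the chaperone Hsph1 (0.926) and Cyp7b1 (0.859). Vehicle B was highest and apart for Nfil3 (0.836) and lowest and apart for Gfap (0.858), where the whole range was 1.02-fold.

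Of the gene lists, the mean of the cell cycle list stood apart in vehicle C (gap 0.956 of the range, mean 0.117). Vehicle A stood apart with the highest mean of the growth hormone and major urinary protein list (0.891, mean 0.090) and of the chaperone list (0.840, mean 0.063) and with the lowest mean of the T and NK cell list (0.840, mean -0.038). Vehicle B had the lowest mean of the fatty acid and triglyceride synthesis list (0.871, mean -0.038). Vehicle D had the highest mean of the small intestine list (0.872, mean 0.098). That list was drawn up after these values were seen, so that its flag is a description only. Among the siRNA groups, the interquartile range over all genes was lowest in GL3 control siRNA D (0.918, value 0.0438).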

How the results depend on the processing

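Of the 153 most variable genes, between 127 and 151 were in the top 1% under the 9 other scalings, measures and probe summaries, and between 85 (without vehicle D) and 125 when a vehicle array was left out. The median SD of 0.0364 became 0.0447 with arrays set to one interquartile range and 0.0456 with quantile normalization, and ranged between 0.0323 and 0.0352 when an array was left out. The first axis held 43.8% of the squares with quantile normalization, 45.5% without the 5 genes at the limit (added after the data were seen), and between 62.5% and 72.7% when an array was left out, since 3 mice have only 2 axes. The share of most variable genes in the top 5% of the siRNA mice was 75.8%, between 76.5% and 79.7% under the 3 other scalings, and between 62.7% (without vehicle D) and 73.2% when a vehicle array was left out.

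The spread test was the result that moved most. Genes called as more variable in vehicle mice were 8, but 126 with arrays set to one interquartile range, 184 with quantile normalization, 13 on all probes, 4 against the control siRNA groups only, and between 9 and 18 when a vehicle array was left out. Genes called as less variable were 5, but 15 with squared deviations on a log scale, 2 with arrays set to one interquartile range, 0 against the control siRNA groups only, 29 against the Ppara siRNA groups only, and between 1 and 5 when an array was left out. The deviations of mice with the same letter in different groups had a median correlation of -0.0168 over 40 such pairs. Their range was -0.205 to 0.302, with 13 pairs over 0.1, and mice with different letters had a median of 0.0116. With the replicate letter as a block the calls were 8 and 5. The difference in interquartile range between vehicle and siRNA arrays was -0.0012 with quantile normalization, where it passed (exact permutation test, p = 0.0487) but says nothing about the arrays, since that setting makes their distributions equal by construction. It was between -0.0188 and -0.0140 when a vehicle array was left out, with none of these passing. In the control siRNA groups only, 5 of the 15 pairs passed by r and 2 by rho. The cause of the other shifts was not tested.

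Without each vehicle array in turn, the members among the most variable 5% ranged between 2 and 11 for cholesterol synthesis (2 without vehicle C), 0 and 21 for the cell cycle (0 without vehicle C), 4 and 11 for stellate cells and fibroblasts, 4 and 10 for growth hormone targets (4 without vehicle A), 4 and 8 for the clock (4 without vehicle B), 4 and 13 for the small intestine (4 without vehicle D) and 16 and 22 for the exocrine pancreas. Of the counts of list members highest or lowest in a mouse, those recomputed stayed within 1.5 times under all 3 other scalings. Those of the neutrophil, the female and male, and the glucose lists, among others, were not recomputed. With 4 arrays and no measurement error per probe, the spread between mice cannot be divided into animal and array.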

Other observations

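Genes of the perivenous zone of the liver lobule, where glutamine synthesis takes place, had 3 of 20 members among the most variable 5.00%, and 12 of the 20 were highest in vehicle B, against 22.5% of all genes. Glutamine synthetase, Glul, had 0.109, 0.199, 0.126 and -0.056 in vehicle A to D over 2 probes, and the aryl hydrocarbon receptor, Ahr, had -0.085, 0.108, 0.071 and -0.092. Regucalcin, Rgn, had 0.042, -0.042, -0.144 and 0.177 over 2 probes, so that vehicle D was highest. Alas1, the first enzyme of heme synthesis, was lowest in vehicle B, with 0.050, -0.270, 0.112 and 0.041. The chemokine Cxcl1 had -0.232, -0.323, 0.206 and 0.103 and Phlda1, an early response gene, had -0.339, -0.351, 0.163 and 0.168, so that vehicle C and D lay above vehicle A and B for both.

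Of the 4703 probes without a single symbol, 52 (1.11%) had an SD at or above that of the most variable genes, as did 207 (1.10%) of the 18790 probes with 1 symbol.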
